A study of Mus musculus with 16 samples.

Results

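The mitochondrial genome of the mouse contributes 37 of the 49671 gene rows in a table of RNA-seq counts from sorted natural killer (NK) cells: 13 mRNA genes, 2 rRNA genes and 22 tRNA genes. The members are all rows that the table places on chromosome MT, whatever their values. NK cells (live CD45+ CD3- NKp46+ DX5+) were sorted from tumour-draining axillary nodes (LN, lymph node) and lungs, 5 to 10 K cells per library. The host mice were FVB/N Cdh1F/F;Trp53F/F;Foxp3GFP-DTR, and each carried a transplanted mammary tumour of the KEP model (Cdh1- and Trp53-deficient) that had reached 100 mm2. In these mice cells that express Foxp3, chiefly regulatory T cells, carry the diphtheria toxin (DT) receptor. The 4 groups, of 4 libraries each, were LN DT, LN PBS, lung DT and lung PBS. DT mice had received 25 µg DT at times labelled 0 and 7, whose unit the labels do not give, and PBS mice had received PBS at the same times. All 4 groups share the genotype and the tumour, so no group shows NK cells of tumour-free mice or of mice without the receptor. The design text calls the 4 libraries of a group biological replicates.

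Mitochondrial DNA is a small circle that is transcribed from both strands into long precursors. The tRNAs that lie between most genes are cut out, which frees the 2 rRNAs of the mitochondrial ribosome and the mRNAs, most of which then gain a short poly(A) tail. All 13 mRNAs encode membrane subunits of oxidative phosphorylation: mt-Nd1 to mt-Nd6 and mt-Nd4l of complex I, mt-Cytb of complex III, mt-Co1 to mt-Co3 of complex IV, and mt-Atp6 and mt-Atp8 of the ATP synthase. All other subunits, and the polymerase, ribosomal proteins and RNA-binding proteins that make and use these transcripts, are encoded in the nucleus.

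Some mitochondrial genes have near-identical copies in the nuclear genome, and these are shown here because a read from such a stretch cannot be placed on sequence alone. Against the nuclear transcripts of GENCODE M21 (build GRCm38, the build of the deposited table), mt-Co2 matched the pseudogene Gm28661 on chromosome 1 without a difference over 681 aligned bases. Every stretch below is the GRCm38 reference, 5′ to 3′ on the gene's strand, and capitals mark bases that differ between a gene and its copy. The FVB/N mitochondrial genome itself was not read. The stretches of mt-Co2 (MT:7323-7382, plus strand) and Gm28661 (chr1:24615196-24615255, minus strand) are identical:
mt-Co2: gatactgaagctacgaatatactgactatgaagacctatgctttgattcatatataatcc
Gm28661: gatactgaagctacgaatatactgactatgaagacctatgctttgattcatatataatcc
The stretches of mt-Co1 (MT:6390-6449, plus strand) and Gm29216 (chr1:24616129-24616188, minus strand) hold the single difference found over 483 aligned bases. It is A1066T, with the base of mt-Co1 first, the position counted from 1 at the gene's first base, and the base of the copy last:
mt-Co1: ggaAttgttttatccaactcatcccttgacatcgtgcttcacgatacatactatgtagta
Gm29216: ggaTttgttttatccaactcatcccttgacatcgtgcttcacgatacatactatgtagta
The stretches of mt-Cytb (MT:14687-14746, plus strand) and its nearest copy, Gm11410 (chr4:80004531-80004590, plus strand), differ at 4 of the 60 bases shown:
mt-Cytb: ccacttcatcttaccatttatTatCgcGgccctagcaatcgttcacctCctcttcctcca
Gm11410: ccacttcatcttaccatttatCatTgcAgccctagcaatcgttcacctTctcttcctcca

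The 5 mRNA genes with a nuclear copy that is identical, or nearly so, over their whole length held few counts. Of all 50-base windows of a gene, the share that also occurs in a nuclear transcript was 100% for mt-Co2, 99.9% for mt-Co3, 99.5% for mt-Atp6, 98.8% for mt-Nd4l and 98% for mt-Nd3. These 5 genes held 605, 232, 684, 14 and 16 counts over all 16 libraries. The share was 62.2% for mt-Nd4, 51.1% for mt-Co1, 8.19% for mt-Nd2, 7.61% for mt-Nd5 and 1.04% for mt-Rnr2. It was 0 for mt-Nd1, mt-Nd6, mt-Cytb, mt-Rnr1 and mt-Atp8. Copies over nearly the whole length at lower identity were also found for mt-Co1 (Gm13340, 97.61%), mt-Nd6 (Gm11408, 93.64%) and mt-Cytb (Gm11410, 92.91%), and these genes held 342527, 39906 and 851171 counts. mt-Rnr2, the 16S rRNA of the large ribosomal subunit, held 857225 counts. The 16 nuclear copies found in the table held 5928 counts together, against 3145932 for the 37 mitochondrial rows. These 16 were listed by alignment over at least 100 bases. Gm20594, which shares windows with mt-Rnr2, is not among them, and its counts are left out. A read that fits a gene and its copy equally well has no single place. How such reads were treated is not given in the sources used here, and what part this has in the low counts was not tested. The values of mt-Co2, mt-Co3, mt-Atp6, mt-Nd3 and mt-Nd4l, and in part those of mt-Co1 and mt-Nd4, are uncertain for this reason. mt-Atp8 held 77 counts and had no such windows, but only annotated nuclear transcripts were searched. On chromosome 1 the copies of mt-Co2 (Gm28661, 24614885-24615565) and mt-Atp6 (Gm10925, 24613974-24614651), the mRNA genes on either side, leave a gap between them. Whether that gap holds a copy of mt-Atp8 was not tested, so its value is uncertain as well. mt-Atp8, mt-Nd3 and mt-Nd4l, with 1 to 13, 0 to 4 and 0 to 4 counts per library, did not pass the filter on low counts and were not tested. The last 43 bases of mt-Atp8 (MT:7927-7969) are also the first 43 of mt-Atp6, and a read that spans both genes cannot be given to either alone. The shared bases, both the end of one open reading frame and the start of the next, are:
mt-Atp8/mt-Atp6: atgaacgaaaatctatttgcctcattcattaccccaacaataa

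**Figure D1:**
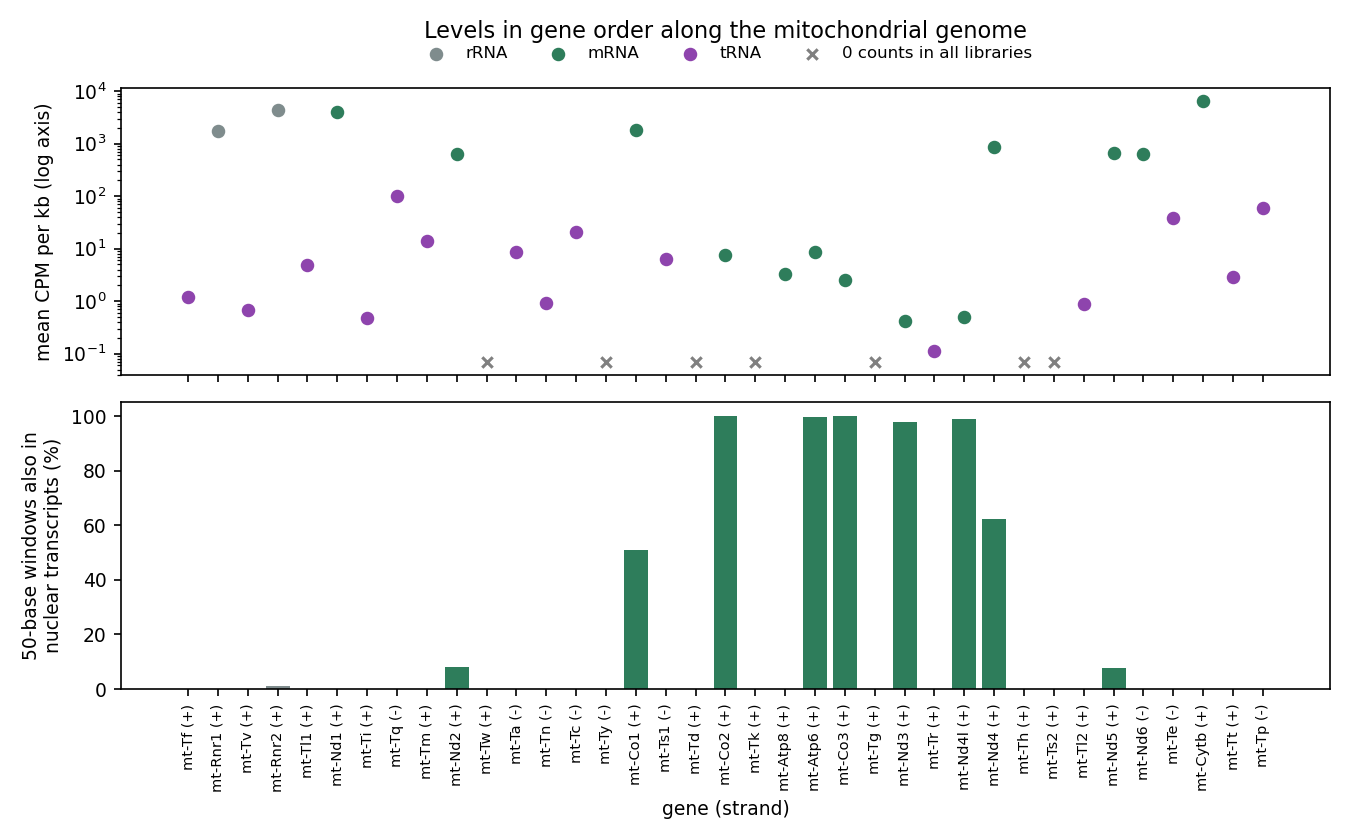
Mean level over the 16 libraries of each mitochondrial gene in CPM (counts scaled to a common library size) per kb (upper panel, log axis) and the share of its 50-base windows found in nuclear transcripts (lower panel, %), in gene order. The 5 genes with shares of 98% or more lie under 10 CPM per kb, while mt-Cytb, mt-Rnr2 and mt-Nd1 lie between 4042 and 6403.

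Per kb of gene, mt-Cytb had the highest mean level over all 16 libraries, 6403 CPM per kb. It was followed by mt-Rnr2 at 4443, mt-Nd1 at 4042, mt-Co1 at 1827 and mt-Rnr1, the 12S rRNA of the small subunit, at 1776 CPM per kb. Lower levels were found for mt-Nd4 (867), mt-Nd5 (666), mt-Nd6 (640.4) and mt-Nd2 (636 CPM per kb). The first place of mt-Cytb leans on the libraries LN DT 1 and lung DT 1. They had 27940 and 18921 CPM per kb of it, against at most 7491 in any other library. In PBS groups mt-Cytb and mt-Rnr2 were close, at 2738 and 2441 CPM per kb in LN and 3333 and 3192 in lung. mt-Nd6 is the sole mRNA gene on the minus strand of the reference. The library kit (Smart-seq2, which primes on poly(A)) does not mark strand, so RNA of the opposite strand at mt-Nd6 cannot be told apart from its own.

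A library's total count lay between 3929560 (lung PBS 2) and 10744934 (lung PBS 1). Of the 49671 genes 13940 passed the filter on low counts, among them 17 of the 37 mitochondrial genes: 10 mRNAs, both rRNAs and 5 tRNAs. Ncr1, the gene of NKp46, had group means of 6065 CPM in LN DT, 5951 in LN PBS, 3281 in lung DT and 4645 in lung PBS. Cd3e, a T cell gene that the sort selects against, had group means between 1.23 and 18.8 CPM. The 7 T cell markers, Cd3e among them, summed to 374 to 795 CPM in LN DT and 470 to 511 CPM in LN PBS libraries. In lung they summed to 143 to 703 CPM in DT and 125 to 174 CPM in PBS libraries. DT and PBS libraries overlapped in both tissues. The LN DT 1 and lung DT 1 libraries stood apart. Their TMM factors were 0.879 and 0.840, against 0.917 to 1.14 in the other 14. Malat1, a long RNA retained in the nucleus, had 18173 CPM in LN DT 1 and 17124 CPM in lung DT 1, against at most 8491 CPM elsewhere. Summed markers of some other cells stood higher in DT libraries. B cell markers (6 of 6 genes detected in both groups) summed to 141 to 880 CPM in LN DT and to 62.8 to 113 CPM in LN PBS libraries, and plasma cell markers (6 of 6) to 747 to 2444 CPM in LN DT and 278 to 367 CPM in LN PBS. Dendritic cell markers summed to 50.4 to 286 CPM in LN DT (6 of 6 detected) and 29.8 to 55.5 CPM in LN PBS libraries (5 of 6, Clec9a at 0), which overlapped. In lung they summed to 71.2 to 85.2 CPM in DT (6 of 6) and 40.2 to 66.7 CPM in PBS libraries (5 of 6, Clec9a at 0), without overlap. Most of the lung sum was Zbtb46, with 47.5 to 79.3 CPM in DT and 19.9 to 60.6 CPM in PBS libraries. Bst2 alone had a lower mean in lung DT (9.90 CPM) than in lung PBS (12.1 CPM), and Flt3 and Xcr1 were nearly level. In LN DT, Siglech ran from 0.110 to 197 CPM between libraries. Markers of macrophages and monocytes (6 of 6) summed to 75.1 to 3494 CPM in lung DT and to 232 to 2492 CPM in lung PBS libraries, which overlapped. Other lists went the other way in lung, with overlap. NK cell markers summed to 13821 to 24960 CPM (median 17571) in lung DT and 21593 to 24396 CPM (median 23264) in lung PBS. Red cell markers had medians of 256 CPM in lung DT and 645 CPM in lung PBS. The part of any of these cells in the results on mitochondrial genes was not tested.

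Mitochondrial genes took a larger share of the counts in most libraries of DT mice. They took 4.93, 4.18, 4.01 and 1.24% of the counts in LN DT libraries 1 to 4, against 1.61, 1.68, 1.28 and 1.05% in LN PBS libraries. In lung the shares were 4.26, 3.22, 4.4 and 3.11% in DT libraries, against 0.951, 1.36, 1.71 and 2.57% in PBS libraries. All 4 lung DT libraries lay above all 4 lung PBS libraries, and 3 of 4 LN DT libraries lay above all LN PBS libraries. LN DT 4 lay within the range of LN PBS. The means were 3.59 ± 1.62% in LN DT and 1.4 ± 0.292% in LN PBS, and 3.75 ± 0.676% in lung DT and 1.65 ± 0.686% in lung PBS (SD, n = 4 each). A share falls when other RNA increases, and in bulk samples fewer cells of a type and less RNA per cell cannot be told apart. Because the share sums over the members it was given no test.

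**Figure D2:**
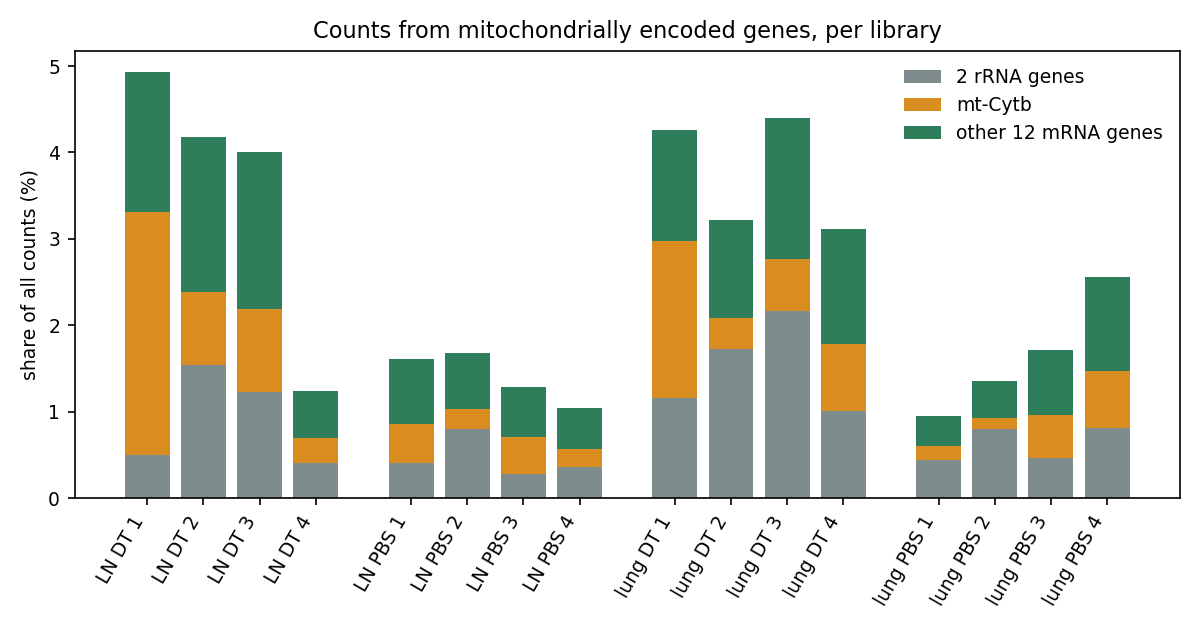
Share of all counts (%, y axis) from mitochondrially encoded genes in each of the 16 libraries, stacked as 2 rRNA genes, mt-Cytb and the other 12 mRNA genes (tRNA genes, under 0.004%, are not visible). Lung DT libraries lie between 3.11% and 4.40%, lung PBS libraries between 0.951% and 2.57%, and mt-Cytb is the largest block in LN DT 1 and lung DT 1.

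Both classes contributed to this. mRNA genes took 4.43, 2.63, 2.78 and 0.833% of the counts in LN DT libraries and 1.2, 0.877, 1 and 0.692% in LN PBS libraries. They took 3.1, 1.48, 2.23 and 2.11% in lung DT libraries and 0.512, 0.564, 1.24 and 1.76% in lung PBS libraries. The mRNA shares overlapped between DT and PBS in both tissues, in LN through LN DT 4 and in lung through lung PBS 4. The 2 rRNA genes took 0.499, 1.54, 1.23 and 0.41% in LN DT and 0.407, 0.798, 0.279 and 0.356% in LN PBS libraries. In lung they took 1.15, 1.73, 2.17 and 1% in DT and 0.438, 0.796, 0.47 and 0.807% in PBS libraries. The rRNA shares did not overlap between the lung groups and overlapped between the LN groups.

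The make-up of the mitochondrial counts varied between libraries of the same group. mt-Cytb gave 56.9, 20.2, 24 and 23% of the mitochondrial counts in LN DT libraries 1 to 4 and 27.9, 13.7, 33.7 and 20.7% in LN PBS libraries. In lung it gave 42.7, 10.9, 13.7 and 25.1% in DT and 17, 9.59, 28.6 and 25.9% in PBS libraries. The libraries LN DT 1 and lung DT 1 were the highest, and the other 14 lay between 9.59% and 33.7%. Without mt-Cytb the mRNA share of these 2 libraries, 1.62% and 1.28% of all counts, lay among those of the other DT libraries (0.547% to 1.82%). Of the mitochondrial mRNA counts alone mt-Cytb gave 23.1% to 63.4%, and 23.1% to 43.1% outside these 2 libraries. Of the summed counts of the other mRNA genes mt-Nd1 gave 30.0% to 44.7%, mt-Co1 20.2% to 34.0%, mt-Nd5 9.40% to 16.3%, mt-Nd4 9.75% to 13.6%, mt-Nd2 3.86% to 10.6% and mt-Nd6 2.00% to 4.98% over the 16 libraries. The lowest mt-Nd1 and the highest mt-Co1 proportions were again in LN DT 1 and lung DT 1. rRNA counts per mRNA count ran over a wide range in every group, overall between 0.113 (LN DT 1) and 1.41 (lung PBS 2).

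The ratio of the 2 rRNAs separated DT from PBS libraries within each tissue, while LN DT overlapped both lung groups. The measure was chosen after its values were seen and is therefore given without a test. mt-Rnr1 had 0.433, 0.382, 0.203 and 0.264 counts per mt-Rnr2 count in LN DT libraries, against 0.0942, 0.16, 0.125 and 0.117 in LN PBS libraries. In lung it had 0.205, 0.156, 0.24 and 0.23 in DT libraries, against 0.353, 0.349, 0.29 and 0.29 in PBS libraries. All LN DT libraries lay above all LN PBS libraries, while all lung DT libraries lay below all lung PBS libraries. The 2 rRNAs come from the same precursor, and both lie next to tRNA genes.

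**Figure D3:**
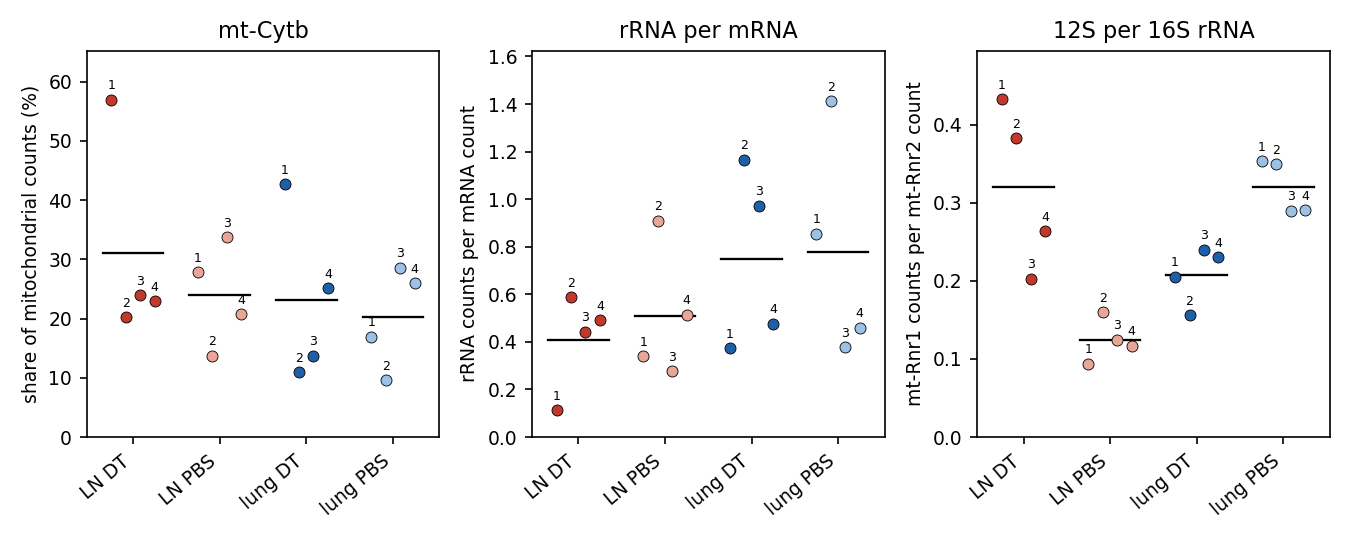
Make-up of the mitochondrial counts by library: mt-Cytb as % of mitochondrial counts (left), rRNA counts per mRNA count (middle) and mt-Rnr1 counts per mt-Rnr2 count (right). Points are libraries with their number, and lines are group means. The 12S per 16S ratio is higher in LN DT (0.203 to 0.433) than in LN PBS (0.0942 to 0.160) and lower in lung DT (0.156 to 0.240) than in lung PBS (0.290 to 0.353).

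In LN, all 17 tested mitochondrial genes had positive log2 fold changes of DT over PBS, and none passed edgeR's test across all genes. Of the 17, edgeR's quasi-likelihood test called 0 at an adjusted p under 0.05, where it called 9 of all 13940 genes (0.0646%). At an unadjusted p under 0.05 it had 12, all higher, where 8.29% of all genes were higher. DESeq2 called 5 of the 18 to which it gave an adjusted p (all genes 1.93% higher), all higher: mt-Rnr1, mt-Tq, mt-Nd2, mt-Co1 and mt-Nd4. limma-voom with quality weights, which lowers the weight of libraries that scatter, called 15 of 17 (all genes 14.9% higher). The median log2 fold change of the 17 was 1.44, against 0.08 for all tested genes, with all 17 above 0. Only mt-Tm, a tRNA gene with few counts, had no overlap between LN DT and LN PBS libraries (all genes higher without overlap 5.05%). It had 4 to 9 counts per library in LN DT and 0 to 3 in LN PBS. In LN PBS mt-Tm and mt-Tc (2 to 8 counts) lay below the filter's minimum of 10 in every library. Both passed the filter through other groups, so their positive signs are not independent of it. The 7 tested mRNAs other than mt-Co2, mt-Atp6 and mt-Co3 had a median of 1.37, with all 7 above 0.

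Of the rRNAs, mt-Rnr1 had 1715, 3738, 1850 and 841 CPM in LN DT libraries 1 to 4, against 322, 1055, 295 and 358 CPM in LN PBS libraries 1 to 4. The lowest LN DT library lay below the highest LN PBS library, LN PBS 2, which stood far above the other 3. The log2 fold change was 2.00 ± 0.47 (SE; edgeR adjusted p = 0.139). mt-Rnr2 had 3964, 9774, 9127 and 3189 CPM in LN DT libraries 1 to 4, against 3421, 6610, 2361 and 3055 CPM in LN PBS libraries 1 to 4. These ranges overlapped widely, and the log2 fold change was 0.75 ± 0.40 (edgeR adjusted p = 0.486).

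Of the complex I mRNAs, mt-Nd4 had 2373, 1970, 1644 and 672 CPM in LN DT libraries 1 to 4, against 674, 807, 555 and 538 CPM in LN PBS libraries 1 to 4. mt-Nd5 had 1962, 1803, 2206 and 697 CPM in LN DT libraries 1 to 4, against 1125, 903, 670.2 and 635 CPM in LN PBS libraries 1 to 4. mt-Nd1 had 5537, 5948, 7003 and 2016 CPM in LN DT libraries 1 to 4, against 2786, 2283, 2434 and 1660 CPM in LN PBS libraries 1 to 4. In each, LN DT 1 to 3 lay above all LN PBS libraries and LN DT 4 lay among them. Their log2 fold changes were 1.37 ± 0.36 for mt-Nd4, 1.00 ± 0.36 for mt-Nd5 and 1.16 ± 0.38 for mt-Nd1, with edgeR adjusted p of 0.172, 0.282 and 0.25 in that order. mt-Nd2 had 1593, 979.6, 693 and 307 CPM in LN DT libraries 1 to 4, against 266, 533, 231 and 282 CPM in LN PBS libraries 1 to 4. mt-Nd6 had 691, 512, 405 and 176 CPM in LN DT libraries 1 to 4, against 161, 309.6, 111 and 179 CPM in LN PBS libraries 1 to 4. The same 3 LN DT libraries were above all LN PBS libraries in both genes. The log2 fold changes were 1.44 ± 0.43 for mt-Nd2 and 1.23 ± 0.41 for mt-Nd6 (edgeR adjusted p = 0.216 and 0.252).

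mt-Co1 encodes the catalytic subunit of cytochrome c oxidase. mt-Co1 had 6279, 4402, 4245 and 1508 CPM in LN DT libraries 1 to 4, against 1890, 1375, 1430 and 1245 CPM in LN PBS libraries 1 to 4. Its log2 fold change was 1.47 ± 0.42 (edgeR adjusted p = 0.204). mt-Cytb had 31964, 7398, 8569 and 2806 CPM in LN DT libraries 1 to 4, against 4118, 2208, 4118 and 2083 CPM in LN PBS libraries 1 to 4. One library, LN DT 1, thus held most of the mt-Cytb signal of its group, with a mean of 12684 ± 13091 CPM in LN DT and 3132 ± 1140 CPM in LN PBS (SD, n = 4 each). The log2 fold change was 2.02 ± 0.70 (edgeR adjusted p = 0.265). The low-count genes mt-Co2, mt-Atp6 and mt-Co3 had log2 fold changes of 0.87 ± 0.65, 1.09 ± 0.65 and 1.42 ± 0.84, with edgeR adjusted p of 0.631, 0.539 and 0.538 in that order.

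In lung the tested rRNA and mRNA genes also had positive log2 fold changes, without a call. The untested mRNAs, with very few counts, had lower means in lung DT than in lung PBS. These were 0.473 and 0.587 CPM for mt-Atp8, 0.0937 and 0.231 CPM for mt-Nd3, and 0.0312 and 0.395 CPM for mt-Nd4l. In LN their means were higher in DT than in PBS (1.18 and 0.419, 0.162 and 0.0873, and 0.136 and 0.0262 CPM). edgeR called 0 of 17 (all genes 0.108%) and had 7 at an unadjusted p under 0.05, all higher (all genes 7.66% higher). DESeq2 called 2 of 19, mt-Rnr2 and mt-Nd5 (all genes 2.14% higher). limma-voom with quality weights called these and mt-Nd4, 3 of 17 (all genes 1.8% higher). The median log2 fold change was 0.89, against 0.09 for all tested genes. All 17 were above 0, mt-Tq barely so at 0.01 ± 0.69, and its sign turned under total counts alone and with library sizes without mitochondrial rows. For the same 3 genes, mt-Rnr2, mt-Nd4 and mt-Nd5, all lung DT libraries lay above all lung PBS libraries (all genes higher without overlap 3.35%).

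mt-Rnr2 had 11405, 14330, 16844 and 8193 CPM in lung DT libraries 1 to 4, against 3442, 6419, 3975 and 6365 CPM in lung PBS libraries 1 to 4. The lowest lung DT library was above the highest lung PBS library, and the log2 fold change was 1.33 ± 0.41 (edgeR adjusted p = 0.177). mt-Rnr1 had 2343, 2240, 4042 and 1888 CPM in lung DT libraries 1 to 4, against 1216, 2242, 1152 and 1849 CPM in lung PBS libraries 1 to 4. These overlapped, with a log2 fold change of 0.70 ± 0.46 (edgeR adjusted p = 0.489).

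mt-Nd4 had 1980, 1480, 1953 and 1392 CPM in lung DT libraries 1 to 4, against 394, 627, 826 and 1221 CPM in lung PBS libraries 1 to 4. mt-Nd5 had 1625, 1613, 2136 and 1382 CPM in lung DT libraries 1 to 4, against 372, 468, 772 and 1057 CPM in lung PBS libraries 1 to 4. Both genes separated the groups, with log2 fold changes of 1.15 ± 0.36 for mt-Nd4 and 1.34 ± 0.37 for mt-Nd5 (edgeR adjusted p = 0.181 and 0.139). mt-Nd1 had 4762, 4131, 6027 and 5561 CPM in lung DT libraries 1 to 4, against 1537, 1842, 3644 and 4713 CPM in lung PBS libraries 1 to 4. mt-Nd2 had 1147, 956, 1032 and 649 CPM in lung DT libraries 1 to 4, against 238, 501, 481 and 671 CPM in lung PBS libraries 1 to 4. mt-Nd6 had 578, 470.1, 657 and 267 CPM in lung DT libraries 1 to 4, against 114, 207, 195 and 287 CPM in lung PBS libraries 1 to 4. In these 3 genes lung PBS 4 reached into the lung DT range. Their log2 fold changes were 0.80 ± 0.38 for mt-Nd1, 1.00 ± 0.42 for mt-Nd2 and 1.30 ± 0.41 for mt-Nd6 (edgeR adjusted p = 0.335, 0.289 and 0.183).

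mt-Co1 had 5159, 2188, 3856 and 4050 CPM in lung DT libraries 1 to 4, against 1072, 1048, 2277 and 3137 CPM in lung PBS libraries 1 to 4. Lung DT 2 lay below 2 of the PBS libraries, and the log2 fold change was 1.02 ± 0.42 (edgeR adjusted p = 0.277). mt-Cytb had 21646, 3362, 5811 and 7855 CPM in lung DT libraries 1 to 4, against 1718, 1420, 5344 and 6771 CPM in lung PBS libraries 1 to 4. Lung DT 1 stood alone here as LN DT 1 did in LN, and the log2 fold change was 1.34 ± 0.69 (edgeR adjusted p = 0.373). The log2 fold changes of mt-Co2, mt-Atp6 and mt-Co3 were 0.40 ± 0.64, 0.32 ± 0.64 and 0.48 ± 0.82, all with an edgeR adjusted p of 0.8 or more.

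**Figure D4:**
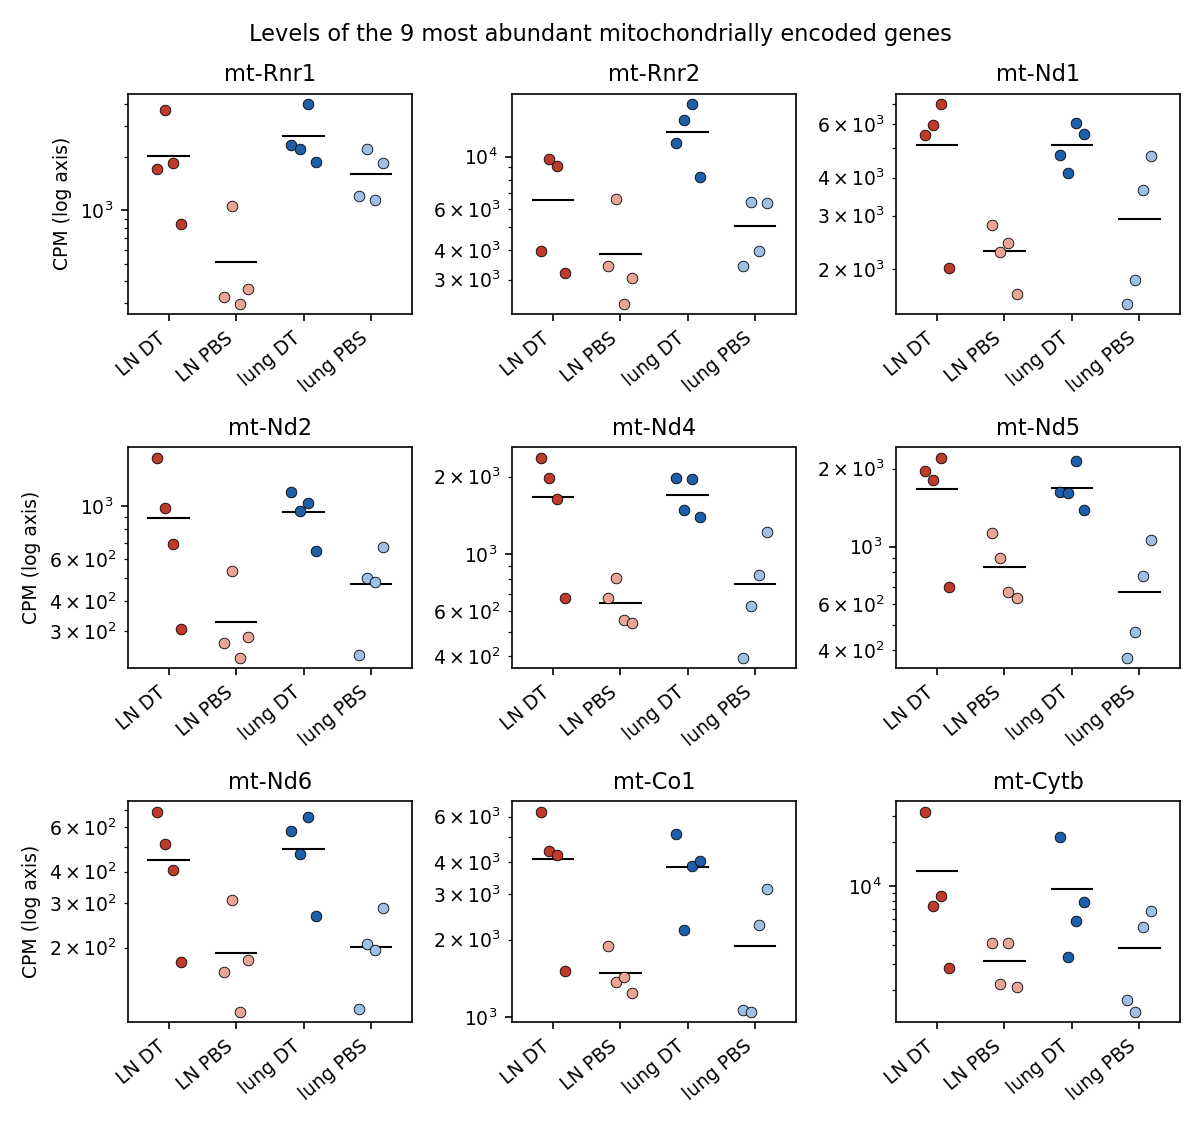
Levels (CPM, log axis) of the 9 most abundant mitochondrial genes in every library of LN DT, LN PBS, lung DT and lung PBS. Points are libraries in order of their number, and lines are group means. Lung DT lies wholly above lung PBS for mt-Rnr2, mt-Nd4 and mt-Nd5, and LN DT 4 lies among the LN PBS libraries for most genes.

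A comparison of DT with PBS averaged over both tissues was added after the results within each tissue were seen. In it edgeR called 8 of 17 mitochondrial genes higher in DT and 0 lower, against 2.47% of all genes called higher. The 8 were mt-Nd4 (1.26 ± 0.26, adjusted p = 0.019), mt-Nd5 (1.17 ± 0.26, 0.0249), mt-Nd6 (1.26 ± 0.29, 0.0296), mt-Co1 (1.24 ± 0.29, 0.0329), mt-Rnr1 (1.35 ± 0.33, 0.0357), mt-Nd2 (1.22 ± 0.30, 0.037), mt-Nd1 (0.98 ± 0.27, 0.04974) and mt-Rnr2 (1.04 ± 0.29, 0.04995), each as log2 fold change ± SE with its edgeR adjusted p. mt-Cytb had the largest value, 1.68 ± 0.49, and did not pass (edgeR adjusted p = 0.0597). Its highest libraries were LN DT 1 and lung DT 1, and over the alternatives its value ran between 0.75 and 1.89. This fit takes LN and lung libraries as independent. Deviations from the group means of LN and lung DT libraries of the same number correlated at r of 0.412, 0.194, 0.230 and 0.184 (all tested genes). In PBS mice 1 of 4 such pairs was above 0.1. With a lung DT library of another number, LN DT 1 to 4 reached at most -0.125, 0.229, 0.181 and 0.015. Lung DT and lung PBS libraries, which come from different mice, reached 0.209. Whether LN and lung libraries of the same number come from the same mouse is not given in the labels, and these values do not settle it. With the number within a treatment as a random block (limma-voom, correlation 0.284), 0 of the 17 were called, the lowest adjusted p was 0.0651, and 0.151% of all genes were called higher. Leaving out 1 library at a time left between 0 and 10 called, with 0 without LN DT 2, LN PBS 4 or lung PBS 3. The calls over both tissues thus varied with the model and with single libraries. The random block came with a change of method, and limma-voom without it was run only with quality weights (12 of 17 called). The part of the pairing alone cannot be told apart.

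At an unadjusted p under 0.05 edgeR had 13 of 17 over both tissues (all genes 13.7% higher), DESeq2 called 12 of 21 (all genes 7.5% higher) and limma-voom with quality weights 12 of 17 (all genes 14% higher), all higher in DT. The median log2 fold change was 1.24, against 0.09 for all genes. The low-count mRNAs mt-Co2, mt-Atp6 and mt-Co3 had log2 fold changes over both tissues of 0.64 ± 0.45, 0.71 ± 0.45 and 0.95 ± 0.59 (edgeR adjusted p = 0.413, 0.363 and 0.345).

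**Figure D5:**
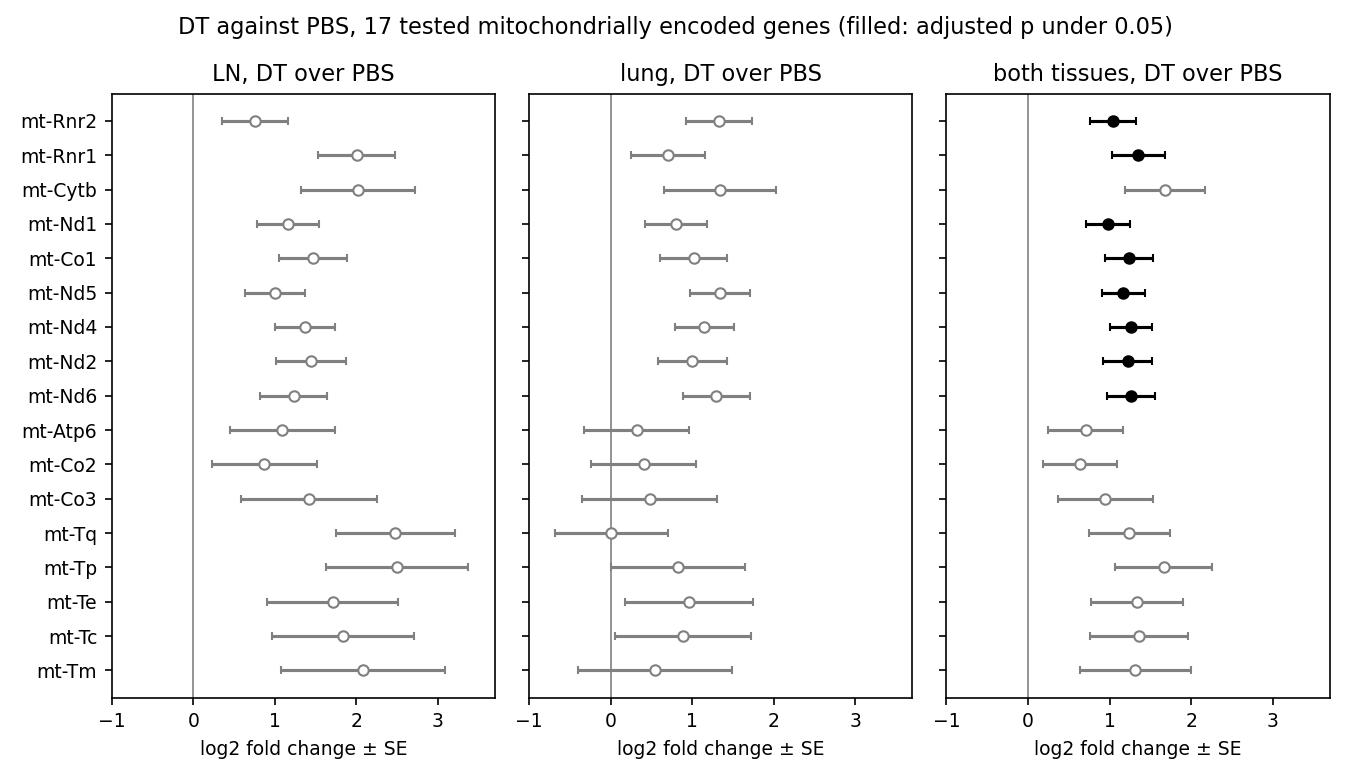
log2 fold changes of DT over PBS (x axis, ± SE) of the 17 tested mitochondrial genes in LN, in lung and averaged over both tissues, from 1 edgeR model. Filled points have an adjusted p under 0.05: 0 in LN, 0 in lung and 8 over both tissues. All points lie right of 0, but mt-Tq in lung, at 0.01, turns below 0 under total counts alone and with library sizes without mitochondrial rows.

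The test of the difference between the tissues in the response to DT (the LN change minus the lung change) called 0 of 17 (edgeR; all genes 0.00717%). It had 1 at an unadjusted p under 0.05, mt-Tq, with the larger change in LN (all genes 2.88%). DESeq2 called 0 of 21 (all genes 0.204%) and limma-voom with quality weights 0 of 17 (all genes 0%). The differences were 2.47 ± 0.99 for mt-Tq, 1.30 ± 0.65 for mt-Rnr1 and -0.58 ± 0.57 for mt-Rnr2 on the log2 scale, with edgeR adjusted p of 1 throughout.

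The 22 tRNA genes held 2104 counts over all libraries, and the 8 of them on the minus strand held 1893 of these. The 14 genes on the plus strand, the strand of most mRNA and rRNA genes, held 211 counts with a median of 2.5 per gene, and 6 of them had 0 in every library. The 8 on the minus strand had a median of 117, and 1 had 0 in every library. A count of 0 over all 16 libraries allows up to 3 counts at this depth, counting error only, and does not show that a tRNA is absent: mature tRNAs lack the poly(A) tail that the kit primes on. The genes with the most counts were mt-Tq (glutamine, 812 counts), mt-Tp (proline, 470), mt-Te (glutamate, 315), mt-Tc (cysteine, 164) and, on the plus strand, mt-Tm (methionine, 115). Their sequences from GRCm38 are given for the 3 highest, 5′ to 3′ on the minus strand, with the anticodon in capitals, at MT:3772-3842, MT:15356-15422 and MT:14071-14139:
mt-Tq: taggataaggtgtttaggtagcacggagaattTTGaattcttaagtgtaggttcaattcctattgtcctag
mt-Tp: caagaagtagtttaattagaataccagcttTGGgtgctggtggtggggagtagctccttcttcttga
mt-Te: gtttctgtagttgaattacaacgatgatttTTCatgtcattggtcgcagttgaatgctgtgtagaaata
As at mt-Nd6, reads of a tRNA gene, of a precursor that spans it and of the opposite strand cannot be told apart.

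mt-Tq had 18.8, 6.06, 7.44 and 2.75 CPM in LN DT libraries 1 to 4, against 1.57, 2.9, 0.618 and 1.13 CPM in LN PBS libraries. In lung it had 20.2, 5.62, 6.22 and 3.4 CPM in DT libraries, against 8.22, 9.97, 8.32 and 8.67 CPM in PBS libraries. Lung DT 1 and LN DT 1 were again the highest of all libraries, and the other 3 lung DT libraries lay below every lung PBS library. The log2 fold change of DT over PBS was 2.48 ± 0.73 in LN and 0.01 ± 0.69 in lung (edgeR adjusted p = 0.216 and 0.998). mt-Tp had 12.5, 7.51, 5.16 and 0.659 CPM in LN DT and 1.57, 0.725, 0.618 and 1.58 CPM in LN PBS libraries. In lung it had 13.3, 4.25, 2.62 and 1.7 CPM in DT and 2.87, 3.05, 2.17 and 4.21 CPM in PBS libraries. Its log2 fold changes were 2.50 ± 0.87 in LN and 0.83 ± 0.83 in lung (edgeR adjusted p = 0.265 and 0.665), and the lung value was negative without lung DT 1. mt-Te, mt-Tc and mt-Tm had log2 fold changes of 1.71, 1.84 and 2.09 in LN and of 0.96, 0.89 and 0.54 in lung, none of which passed. The 5 tested tRNAs did not pass over both tissues either, at edgeR adjusted p between 0.109 (mt-Tp) and 0.258 (mt-Tm).

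Between the tissues in PBS mice, mt-Rnr1 and mt-Tq had the smallest p among the mitochondrial genes. edgeR called 0 of 17 in lung PBS against LN PBS (all genes 3.61%), with 3 at an unadjusted p under 0.05, all higher in lung (all genes 10.3% higher). The log2 fold change of lung over LN was 1.67 ± 0.47 for mt-Rnr1 and 2.49 ± 0.73 for mt-Tq (edgeR adjusted p = 0.0557 and 0.0682). The third gene at an unadjusted p under 0.05 was mt-Tm, at 2.40 ± 1.01 (edgeR adjusted p = 0.225). With mt-Tp, mt-Rnr1 and mt-Tq were the 3 genes for which all lung PBS libraries lay above all LN PBS libraries (all genes higher without overlap 9.25%). DESeq2 called both, 2 of 21 (all genes 5.35% higher), and limma-voom with quality weights both, 2 of 17 (all genes 8.9% higher). Fitted on these 8 libraries alone, both passed edgeR's test as well (lowest adjusted p = 0.0164), and over all alternatives between 0 and 2 were called. mt-Rnr2 had a log2 fold change of 0.39 ± 0.40 and mt-Cytb of 0.28 ± 0.68, which did not pass (edgeR adjusted p = 0.715 and 0.892). Without lung PBS 4 the value of mt-Cytb was -0.14. mt-Nd5 had a log2 fold change of -0.32 ± 0.36 (edgeR adjusted p = 0.742). The median over the 17 was 0.75, against -0.01 for all genes.

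In DT mice no mitochondrial gene passed the test between lung and LN. edgeR called 0 of 17 in lung DT against LN DT (all genes 6.75%). DESeq2 called 0 of 21 (all genes 11.8%) and limma-voom with quality weights 0 of 17 (all genes 12.9%). edgeR had 1 at an unadjusted p under 0.05 (all genes 10.8% higher), mt-Rnr2, with 12693 ± 3734 CPM in lung DT and 6514 ± 3416 CPM in LN DT (SD, n = 4 each) and a log2 fold change of 0.96 ± 0.40 (edgeR adjusted p = 0.172). No gene was without overlap between these groups in either direction (all genes without overlap 5.57% higher in lung and 6.08% lower). Of the 17 log2 fold changes 12 were above 0, and between 8 (total counts alone) and 14 with other scalings. With the library number as a block, the count of calls was 0 as well.

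Of 260 tested nuclear genes that build and run mitochondria, 0 were called for DT against PBS in LN and 0 in lung (edgeR), where 0.0646% and 0.108% of all genes were called. At these shares a count of 0 says nothing particular about them. The genes came in 12 lists, from the transcription of mitochondrial DNA (10 genes) to the mitochondrial ribosome (78 genes, 77 tested). Median log2 fold changes of the lists lay between -0.35 (regulators of mitochondrial biogenesis) and 0.34 (nuclear complex III) in LN, and between -0.28 (mitophagy) and 0.13 (regulators of biogenesis) in lung. Over both tissues 2 were called higher (0.769%, all genes 2.47%) and 4 lower (1.54%, all genes 1.43%), shares no larger, or hardly larger, than those of all genes. Slirp, which binds and stabilises mitochondrial mRNAs, was higher (log2 fold change 1.198, edgeR adjusted p = 0.048), as was Cox7b of complex IV (0.95, 0.0417). Lower were Ndufs7 of complex I (-0.57, 0.037), Uqcrc1 of complex III (-0.58, 0.048) and both large subunits of the ATP synthase core, Atp5a1 (-0.87, 0.0364) and Atp5b (-0.89, 0.0386). The mitochondrial ribosome had 0 called, a median of -0.07 and Mrps17 as the gene of smallest p (0.62, edgeR adjusted p = 0.0522). The polymerase and factors that transcribe mitochondrial DNA had 0 called and a median of 0.02. For Slirp the means were 121 CPM in LN DT and 41.5 CPM in LN PBS, and 47.2 CPM in lung DT and 26.1 CPM in lung PBS (n = 4 each). With the library number within a treatment as a random block (limma-voom), none of these 6 genes was called (adjusted p between 0.0669 and 0.152).

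Of 4 long RNAs retained in the nucleus, 3 were called higher in DT over both tissues in the fit that takes LN and lung libraries as independent (all genes 2.47% higher). They were Xist (log2 fold change 1.40, edgeR adjusted p = 0.0097), Malat1 (1.35, 0.046) and Kcnq1ot1 (1.15, 0.04995), while Neat1 had 0.89 (edgeR adjusted p = 0.0896). With the random block (limma-voom) Xist alone was called, at an adjusted p of 0.0416, and those of Malat1, Kcnq1ot1 and Neat1 were 0.123, 0.124 and 0.233. Xist averaged 888 CPM in LN DT and 374 CPM in LN PBS, and 1010 CPM in lung DT and 342 CPM in lung PBS (n = 4 each). In LN and in lung alone, 0 of 4 were called, with Xist at 1.25 ± 0.35 and 1.56 ± 0.35 (edgeR adjusted p = 0.191 and 0.0762). Their part in the share of mitochondrial counts was not tested.

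Between the tissues, the nuclear genes for mitochondria held calls at or below the share of all genes, while most list medians were below 0 (lower in lung). They ran from -0.62 (mitochondrial translation) to 0.37 (chaperones and proteases) in PBS and from -0.55 (translation) to 0.42 (mitophagy) in DT. In lung DT against LN DT 36 of 36 nuclear complex I genes (median -0.37) and 70 of 77 mitochondrial ribosome genes (-0.42) were below 0, against a median of -0.04 for all genes. In lung PBS against LN PBS edgeR called 4 of 260 (1.54%, all genes 3.61%). Polg2, a subunit of the mitochondrial DNA polymerase (log2 fold change 1.85, edgeR adjusted p = 0.0235), Map1lc3b of autophagy (1.13, 0.026) and the stress-response factor Ddit3 (0.98, 0.043) were higher and Myc was lower (-2.05, 0.0181). In lung DT against LN DT it called 14 of 260 (5.38%, all genes 6.75%), 8 higher and 6 lower. Higher were Polg2 (2.02, 0.0103), the mitochondrial topoisomerase Top1mt (1.495, 0.0495), Pde12, which removes poly(A) from mitochondrial RNA (1.17, 0.0249), Sirt1 (1.81, 0.017), Ddit3 (1.25, 0.0082) and, of autophagy, Map1lc3b (1.00, 0.033), Ulk1 (1.70, 0.036) and Sqstm1 (1.43, 0.0478), each as log2 fold change and edgeR adjusted p. Lower were Mrps18b (-2.57, 0.0075) and Mrps35 (-1.11, 0.0103) of the mitochondrial ribosome, Tefm, an elongation factor of mitochondrial transcription (-2.62, 0.0486), the pseudouridine synthase Pus1 (-1.94, 0.0046), the nucleoside kinase Dguok (-1.09, 0.0335) and Clpx of a mitochondrial protease (-1.19, 0.0318).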

How the data were processed

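RNA was measured in 16 libraries of sorted mouse NK cells. The authors prepared libraries with Smart-seq2, per the labels' protocols, and per the submitters' processing notes aligned reads with HISAT2 to GRCm38 and counted them per gene with HTSeq. For neither tool do the sources used here give a version or setting, the treatment of reads with several places included. The deposited table holds raw counts, whole numbers for 49671 genes. All 16 columns were used and 0 left out. Total counts of 3929560 to 10744934 per library set the precision, and the limit given for a count of 0 covers counting error only.

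Genes kept by filterByExpr (minimum count 10, minimum total 15) entered edgeR 4.0.16 (R 4.3.3), with TMM scaling and a quasi-likelihood fit (robust=TRUE) of 4 group means. The common biological coefficient of variation was 0.621, with 12 residual degrees of freedom. Tests were two-sided, adjusted by Benjamini-Hochberg over 13940 genes and called at 0.05. SEs are those the F statistic implies. CPM use TMM-scaled sizes. DESeq2 1.42.0 and limma 3.58.1 gave alternatives, beside other size factors, no filter, fits on the compared groups, the library number as a block and each library left out. The edgeR script was tested on simulated data. DT libraries of the same number in LN and lung correlated above 0.1 in all 4 pairs (0.184 to 0.412), but LN DT 2 and LN DT 3 reached 0.229 and 0.181 with another number. These values are taken from the data, since the labels tie no LN library to a lung library. Nuclear copies were sought with blastn 2.17.0 (at least 90% identity over 100 bases) and by shared 50-base windows in GENCODE M21 transcripts. The coordinates of all 37 members are the same there.

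The members are fixed by chromosome. The members and lists were chosen with earlier results of these data known, and the comparison over both tissues was added after the results within each tissue were seen. All mRNA and rRNA genes are named. tRNA genes are named if they were tested or held at least 100 counts. Nuclear genes are the called members of a list (at most 4) or else the one of smallest p. P-values measure the spread between libraries taken as animals. Explanations were not tested.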

Additional observations from a re-analysis of the deposited data

Results flagged for a closer look

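In 92 groups of 4 values (the 17 tested genes and 6 shares or ratios in each group), 6 had 1 library far from the other 3. Chance alone flags about 1 in 20 such groups. mt-Cytb made up 56.9% of the mitochondrial counts in LN DT 1, against 20.2% to 23.95% in the other LN DT libraries. mt-Tq reached 20.2 CPM in lung DT 1, against 3.40 to 6.22 CPM in the other lung DT libraries. In LN PBS 2, mt-Rnr1 had 1055 CPM, against 295 to 358 CPM in the other LN PBS libraries. The same library had 533 CPM of mt-Nd2, against 231 to 282 CPM, and 0.967 CPM of mt-Tc, against 0.210 to 0.247 CPM. mt-Atp6 had 1.58 CPM in lung PBS 1, against 6.63 to 7.48 CPM in the other lung PBS libraries.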

How the results depend on the processing

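In LN (DT against PBS) 22 of 26 alternatives called 0 of the mitochondrial genes, while DESeq2 called 5, limma-voom with quality weights 15, and leaving out single libraries 0 to 4 (4 without LN DT 4: mt-Rnr1, mt-Nd2, mt-Co1 and mt-Nd4). In lung 24 of 26 called 0, DESeq2 called 2, limma-voom 3, and leaving out single libraries 0. The interaction (25 alternatives) and lung DT against LN DT (26) gave 0 throughout. For lung PBS against LN PBS, 1 was called with library sizes without mitochondrial rows, 2 each with the replicate block, with the groups compared alone, with DESeq2, with limma-voom and without both DT libraries numbered 1, and 0 to 2 without single libraries. Over both tissues the count was 0 with the random block and 0 to 10 without single libraries. It was 1 without LN DT 1, LN DT 3, LN PBS 3, lung PBS 1 or lung PBS 2, 2 without LN PBS 1, 5 without lung DT 2, 4 without lung DT 3, and 8 without both DT libraries numbered 1. The replicate block, a fixed term for the library number over all 4 groups, left the count at 0 in lung DT against LN DT, in LN and in lung. It gave 6 over both tissues. This block also ties DT to PBS libraries of the same number, so it does not represent a pairing within mice.

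In lung the log2 fold change of mt-Tq changed sign in 19 of 26 alternatives: -0.015 under total counts alone, -0.039 with library sizes without mitochondrial rows, -0.026 with no gene filter, -0.35 with the replicate block, -0.013 with the groups compared alone, -0.61 with limma-voom, -0.85 without both DT libraries numbered 1, and -0.84 to 0.22 without single libraries. mt-Tp turned to -0.17 without both DT libraries numbered 1 and ran between -0.16 (without lung DT 1) and 1.06 without single libraries. mt-Atp6 ran between -0.0057 (without lung PBS 1) and 0.43 without single libraries. In lung PBS against LN PBS the value of mt-Cytb was -0.14 without lung PBS 4 and ran up to 0.57 without single libraries. For DT against PBS mt-Cytb kept its sign but not its size over the alternatives. Its value ran between 0.93 and 2.35 in LN, 0.52 and 1.76 in lung, and 0.75 and 1.89 over both tissues. None of the other values of the 17 genes changed sign for DT against PBS in LN, in lung or over both tissues, nor did those given for single genes between the tissues (mt-Rnr1, mt-Rnr2, mt-Nd5, mt-Tq, mt-Tm and mt-Tp in PBS, and mt-Rnr2 in DT).

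Mean shares of mitochondrial counts moved by more than 1 SD only without the 2 rRNA genes, to 2.27% in lung DT and 0.948% in LN PBS. Without single libraries the means ran between 3.14% and 4.37% in LN DT, 1.31% and 1.52% in LN PBS, 3.53% and 3.96% in lung DT, and 1.34% and 1.88% in lung PBS. The counts of tRNA genes, and of mt-Co2, mt-Co3, mt-Atp6, mt-Nd3 and mt-Nd4l, are too low for small differences to be seen.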

Other observations

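The nuclear copies themselves showed steps in single libraries that belong to no comparison of the report. Gm29216, the copy of mt-Co1 on chromosome 1, had 1113 counts in LN DT 3 and 397 in lung DT 1, against 12 to 75 in the other 14 libraries. Gm13340, the copy of mt-Co1 on chromosome 2, had 672 counts in lung PBS 4, against 14 to 61 in the other 15. Gm10925, the copy of mt-Atp6, had 219 counts in LN PBS 4, against 14 to 89 in the other 15. mt-Co1 itself had 4245 CPM in LN DT 3, within the range of the LN DT libraries (1508 to 6279 CPM), and mt-Atp6 had 2.26 CPM in LN PBS 4, the lowest of the LN PBS libraries. All 16 copies in the table were looked at for such steps after the values were seen, and none of these was tested.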
